A study of Mus musculus with 19 samples.

Results

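The expression of 10 genes of T cell costimulation and checkpoint control was followed in retinal microglia, resident macrophages, on day 3 after laser treatment (CNV d3). The genes were taken by symbol as *Cd80*, *Cd86*, *Cd40*, *Icosl*, *Cd274*, *Pdcd1lg2*, *Vsir*, *Havcr2*, *Cd200r1* and *Cd83*, and all 10 were among the 27299 genes of the deposited table. RNA-seq compared 6 CNV d3 samples, with 6 argon laser burns set in each eye, with 6 samples from unlasered controls. The laser breaks the pigment epithelium below the retina, so that vessels grow in from the choroid. Mice of both groups were 8 weeks old in the labels and methods, whereas the scheme of the experiment shows laser treatment at 6 weeks. The labels give the strain as C57BL/6J and the cells as CD45+, and the methods name *Cx3cr1* GFP/+ mice, which carry 1 functional copy of *Cx3cr1*, and CD45lo cells. The sort kept CD11b+, CX3CR1+ cells and removed Ly6C+ and Ly6G+ cells in both groups. How many mice were pooled in a sample is not given in the sources used here, and p-values measure the spread between these samples.

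A T cell that recognises a peptide on MHC class II needs a second signal from the presenting cell. CD80 and CD86 give it through CD28 and are also bound by the inhibitory receptor CTLA-4, ICOS ligand gives it through ICOS, and CD40 receives help from CD40 ligand on the T cell. PD-L1 (encoded by *Cd274*), PD-L2 (*Pdcd1lg2*) and VISTA (*Vsir*) restrain T cells, while TIM-3 (*Havcr2*) and CD200R (*Cd200r1*) are inhibitory receptors that the myeloid cell itself carries. Resting microglia are known to be weak presenting cells that express several of the restraining molecules.

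Of the 10 genes, *Vsir*, *Cd86* and *Cd80* were lower in CNV d3 and *Cd40* and *Icosl* were higher, with an adjusted p under 0.05 by limma with Benjamini-Hochberg adjustment over all 27299 genes. The other 5 genes did not pass the test. The background was 4.57% of all genes lower and 8.29% higher at the same threshold, or 12.9% in either direction. Among genes with at least 10 normalized counts in 6 samples, which *Pdcd1lg2* is not, these shares were 12.1% and 16.9%. Only *Cd40* also had an absolute log2 fold change above 1.5, the limit set for a differentially expressed gene (DEG), as 3.91% of all genes had in the higher direction. The median log2 fold change was -0.12 over the 10 genes and 0.15 over all genes. Fold changes from limma are on the log2(normalized counts + 1) scale, and for genes with few reads they depend on the pseudocount and can be above those of tests on reads. The calls for *Vsir* and *Cd86* held whichever sample was left out and among female samples alone, and those for *Cd80*, *Icosl* and *Cd40* did not.

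The control libraries were shallower, with 10963178 to 22335233 reads on genes against 23532260 to 29523018 in CNV d3. One read stood for 1.00 to 1.99 normalized counts in control and for 0.739 to 0.895 in CNV d3. Sex moved with the group in part, since CNV d3 samples 4, 5 and 6 held 1239 to 1450 normalized counts of the Y-linked gene *Ddx3y*, and the other 9 samples held no read of it. Calls were therefore repeated without these 3 samples. Microglial markers were high in every library, with a sum over 10 genes of 1354511 to 1524984 normalized counts in control and 754090 to 1135277 in CNV d3, and 7 of the 10 were lower. Monocyte markers summed to 239 to 1219 in control and 1128 to 4426 in CNV d3, with 5 of 10 higher. Of 10 dendritic cell markers 6 were higher, 3 were not called and *Fscn1* was lower, and their sum of 5460 to 6552 in control overlapped with 4685 to 6779 in CNV d3. *Fscn1* had the highest mean of this list in both groups, at 4697 in control and 2300 in CNV d3. Its fall thus offset the rise of other markers in the sum. Neutrophil markers summed to at most 26.4 and T and NK cell markers to at most 38.5 in any sample, and 4 genes of the T and NK cell list, *Cd3e*, *Cd8b1*, *Trbc1* and *Ncr1*, are not rows of the table used here. Photoreceptor markers spread widely in both groups, with sums of 633 to 6426 in control and 536 to 11812 in CNV d3, and 0 of the 6 were called by limma (1 higher at an unadjusted p under 0.05, and 1 called higher by edgeR and by DESeq2). In bulk samples, fewer cells of a type and less RNA per cell cannot be told apart, and the part of other cells in the results was not tested.

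**Figure D1:**
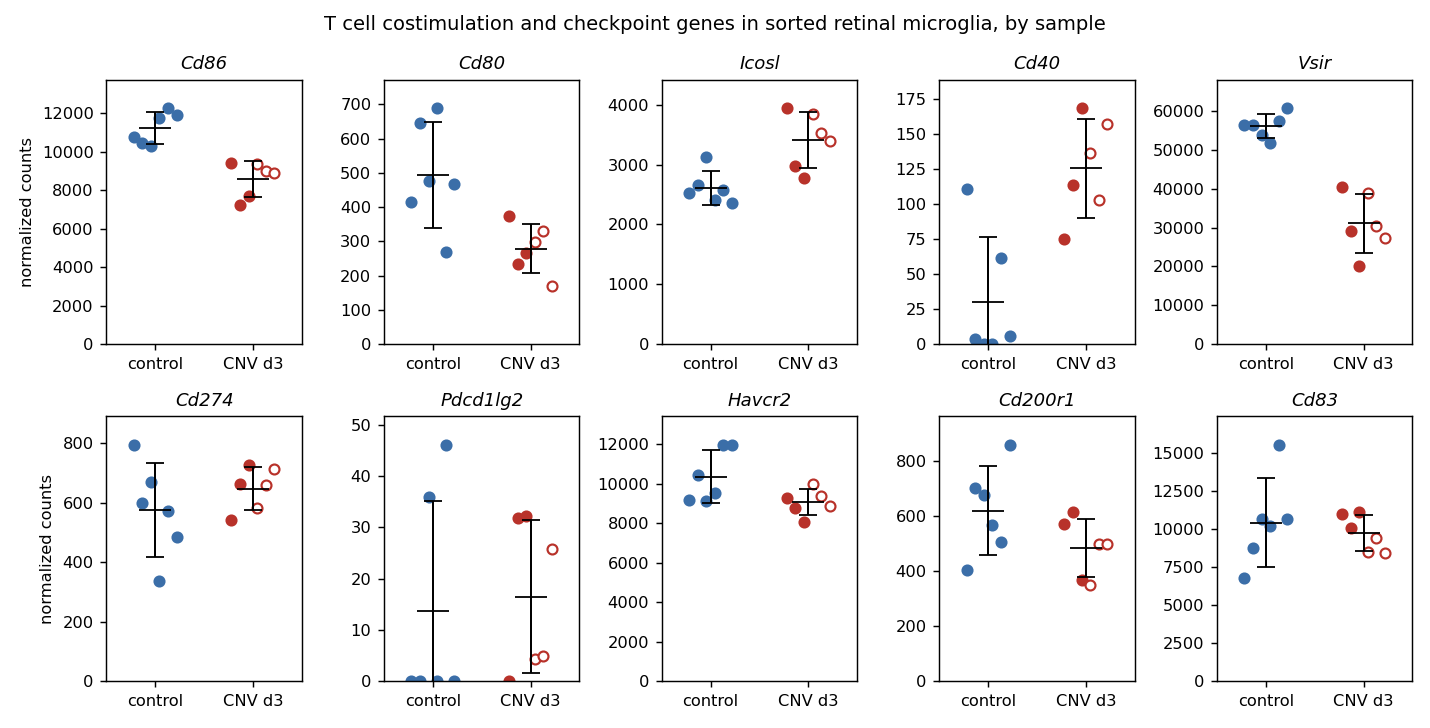
Normalized counts (linear vertical axes from 0) of the 10 genes in each control (blue) and CNV d3 (red) sample. Each circle is 1 sample, open circles are the samples with *Ddx3y* reads, and black lines are the mean ± SD (n = 6). The groups are apart for *Cd86* and *Vsir*, with CNV d3 lower, as is true of 2.83% of all genes, and overlap for the other 8 genes.

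The genes differed widely in level. Per kilobase of exon, *Vsir* was the highest in control microglia at 11179.9 ± 619 normalized counts (SD, n = 6), with no overlap with the next. *Cd83* at 4058 ± 1138, *Havcr2* at 3812 ± 489 and *Cd86* at 3070 ± 228 normalized counts per kilobase followed. The range of *Cd83* took in the samples of both *Havcr2* and *Cd86*, which did not overlap with each other. *Icosl* stood apart in the middle at 565 ± 60.3 normalized counts per kilobase. Below it, *Cd200r1* (185 ± 48.2), *Cd274* (159 ± 43.4) and *Cd80* (133 ± 41.8) overlapped with each other. *Cd40* and *Pdcd1lg2* were the lowest at 8.90 ± 13.5 and 6.99 ± 10.9, and both overlapped. In CNV d3 the order was the same, with *Vsir* at 6204 ± 1511, *Cd86* at 2346 ± 253, *Icosl* at 738 ± 101, *Cd80* at 75.4 ± 19.5 and *Cd40* at 36.8 ± 10.3 normalized counts per kilobase, except that *Cd274* (179 ± 19.99) now stood above *Cd200r1* (144 ± 31.6), a pair whose samples overlapped. The overlaps differed from control, since *Vsir* (lowest 4015) now overlapped with *Cd83* (highest 4326), and *Cd80* (lowest 45.8) with *Cd40* (highest 49.4). *Cd83* no longer overlapped with *Cd86*, *Cd80* with *Cd200r1* or *Cd274*, nor *Cd40* (lowest 21.9) with *Pdcd1lg2* (highest 16.4).

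Of the ligands of CD28, *Cd86* was the higher per kilobase in both groups, and both were lower in CNV d3. *Cd86* (GRCm38, chr16:36603869-36666081, minus strand) ranged from 10302 to 12259 normalized counts in control with a median of 11254, and from 7205 to 9407 in CNV d3 with a median of 8935. Every CNV d3 sample was below every control sample, as was true of 2.83% of all genes. The mean fell from 11238 ± 835 to 8589 ± 926 normalized counts (SD, n = 6), a log2 fold change of -0.39 (SE 0.08, 95% interval -0.57 to -0.21, adjusted p = 0.00633 by limma). It was -0.48 in female samples alone (adjusted p = 0.0301 by limma).

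*Cd80*, the lower expressed ligand of CD28 (chr16:38455561-38496335, plus strand), ranged from 268 to 689 normalized counts in control with a median of 472. In CNV d3 it ranged from 169 to 373 with a median of 283. Control 5 lay among the CNV d3 values and control 1 just above them, so the groups overlapped. The mean fell from 494 ± 155 to 279 ± 72.2 (log2 fold change -0.80, SE 0.25, 95% interval -1.34 to -0.27, adjusted p = 0.0486 by limma). The call is close to the threshold. It held in 2 of the 12 fits that left out 1 sample, those without control 5 and without CNV d3 sample 1, and in female samples the log2 fold change was -0.72 with an adjusted p of 0.251 by limma.

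*Icosl*, the ligand of ICOS on activated T cells (chr10:78069302-78083913, plus strand), ranged from 2355 to 3132 normalized counts in control with a median of 2550. In CNV d3 it ranged from 2769 to 3943 with a median of 3467. Control 3 lay above CNV d3 samples 2 and 3, and the other 4 CNV d3 samples were above all controls. The mean rose from 2609 ± 279 to 3412 ± 466 (log2 fold change 0.38, SE 0.11, 95% interval 0.15 to 0.61, adjusted p = 0.0299 by limma). The log2 fold change was 0.30 in female samples (adjusted p = 0.268 by limma), and the call was lost in fits without control 1, 4 or 6 and in those without CNV d3 sample 1, 4, 5 or 6, where it kept a log2 fold change of at least 0.34.

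*Cd40*, the receptor for CD40 ligand (chr2:165055627-165072948, plus strand), had the largest fold change of the 10 genes and few reads. The control samples 1 to 6 held 103, 4, 0, 0, 61 and 3 reads, and the CNV d3 samples 101, 136, 188, 157, 128 and 189. In normalized counts, control ranged from 0 to 111 with a median of 5.00, and CNV d3 from 74.6 to 168 with a median of 125. Thus 4 controls were near 0, control 5 was below all CNV d3 samples, and control 1 lay above CNV d3 samples 1 and 5. The mean rose from 30.3 ± 45.9 to 125 ± 35.2 normalized counts, which is 4.14 times the control mean. The log2 fold change was 3.95 by limma (SE 1.07, 95% interval 1.66 to 6.24, adjusted p = 0.0238). With reads recovered from the values, edgeR (quasi-likelihood) gave 2.04 with an adjusted p of 0.174 and DESeq2 gave 2.04 with an adjusted p of 0.125. Among female samples the log2 fold change was 3.85 (adjusted p = 0.268 by limma), and over the 12 fits without 1 sample the adjusted p ran from 0.00955 to 0.0818, with the call kept only without control 1 or control 5. With all libraries thinned to the reads of the shallowest one, it was 3.63 (adjusted p = 0.0312 by limma).

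*Vsir*, the gene of VISTA (chr10:60346851-60372684, plus strand), had the largest fall of the 10 genes on the log2 scale. Control samples ranged from 51640 to 60729 normalized counts with a median of 56381, and CNV d3 samples from 20132 to 40449 with a median of 29819. The highest CNV d3 sample was well below the lowest control, and groups without overlap in this direction were seen for 2.83% of all genes. The mean fell from 56056 ± 3106 to 31106 ± 7578 normalized counts (log2 fold change -0.89, SE 0.13, 95% interval -1.17 to -0.60, adjusted p = 0.000519 by limma). It was -0.96 in female samples (adjusted p = 0.0255 by limma) and lay between -0.97 and -0.77 when 1 sample was left out.

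The 250 bases before the start of *Vsir* and *Cd80* are shown because both genes fell and both have an entry in the RefSeq promoter table (GRCm38.p6), as 6 of the 10 genes do. Capitals mark matches, on either strand, to the NF-kappaB letters (GGGA, any 4 bases, then CC) and the AP-1 letters TGANTCA. The first window ends at the start of *Vsir* (chr10:60346601-60346850, plus strand), and the second (chr16:38458683-38458932, plus strand) lies within the Gencode gene *Cd80* but in none of its exons.
Vsir: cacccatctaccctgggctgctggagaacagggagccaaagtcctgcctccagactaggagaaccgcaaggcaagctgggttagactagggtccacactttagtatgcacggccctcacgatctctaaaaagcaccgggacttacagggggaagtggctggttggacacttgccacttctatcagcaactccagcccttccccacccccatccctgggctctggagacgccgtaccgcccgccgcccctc
Cd80: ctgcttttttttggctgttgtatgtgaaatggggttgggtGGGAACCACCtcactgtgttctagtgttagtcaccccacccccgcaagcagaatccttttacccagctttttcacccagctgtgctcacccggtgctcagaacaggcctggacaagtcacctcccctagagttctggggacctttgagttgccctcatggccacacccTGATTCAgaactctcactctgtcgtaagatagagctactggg
The *Cd80* window holds 1 match of each, at positions -210 and -42 from the start. The *Vsir* window holds no match to either, nor to the PU.1 letters GAGGAAGT or the interferon response letters (GAAA, any 2 bases, then GAAA). Over 32851 promoters of this length, 17.6% hold the NF-kappaB letters, 6.75% the AP-1 letters, 2.44% the PU.1 letters and 2.98% the interferon response letters. Of the other windows, those of *Icosl* and *Pdcd1lg2* hold the NF-kappaB letters, that of *Havcr2* the AP-1 and PU.1 letters, and that of *Cd274* none of the 4. A match is a description of the letters alone.

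*Cd274*, the gene of PD-L1 (chr19:29367455-29388095, plus strand), ranged from 336 to 796 normalized counts in control with a median of 586 and from 544 to 727 in CNV d3 with a median of 661. The CNV d3 samples lay inside the range of the controls. The mean was 576 ± 157 in control and 648 ± 72.4 in CNV d3 (log2 fold change 0.21, SE 0.19, 95% interval -0.19 to 0.61, adjusted p = 0.539 by limma). A gene on the opposite strand shares 511 of its 3622 exon bases, so its counts are uncertain.

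*Pdcd1lg2*, the gene of PD-L2 next to *Cd274* (chr19:29410919-29471161, plus strand), was near the limit of detection. Control samples held 0, 0, 32, 0, 46 and 0 reads and CNV d3 samples 0, 38, 36, 5, 6 and 31. Reads were present in 2 of 6 controls and in 5 of 6 CNV d3 samples, and the highest value, 46.2 normalized counts, was that of control 5. The mean was 13.7 ± 21.5 in control and 16.5 ± 15.0 in CNV d3 (log2 fold change 1.502, SE 1.29, 95% interval -1.25 to 4.25, adjusted p = 0.534 by limma). A difference in either direction was not detectable at this depth and spread.

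The inhibitory receptors of the myeloid cell did not pass the test. *Havcr2*, the gene of TIM-3 (chr11:46454935-46481255, plus strand), ranged from 9129 to 11985 normalized counts in control with a median of 10002 and from 8049 to 10005 in CNV d3 with a median of 9102. The CNV d3 samples overlapped with the lower controls, and controls 2, 5 and 6 were above all of them. The log2 fold change was -0.19 (SE 0.09, adjusted p = 0.207 by limma), and the interval of -0.38 to 0.003 does not reach the size of the change in *Vsir*. *Cd200r1* (chr16:44765736-44794978, plus strand) ranged from 402 to 858 in control with a median of 621 and from 349 to 612 in CNV d3 with a median of 497, so most samples overlapped. Its log2 fold change was -0.35 (SE 0.21, 95% interval -0.78 to 0.09, adjusted p = 0.333 by limma).

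*Cd83* encodes a surface protein of activated presenting cells that protects CD86 and MHC class II from degradation (chr13:43784775-43803132, plus strand). It ranged from 6757 to 15563 normalized counts in control with a median of 10451 and from 8429 to 11127 in CNV d3 with a median of 9722. The lowest and the highest sample, 1 and 5, were both controls. The log2 fold change was -0.06 (SE 0.16, 95% interval -0.39 to 0.27, adjusted p = 0.805 by limma), and its sign turned to 0.06 without control 5 and to 0.08 in female samples.

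**Figure D2:**
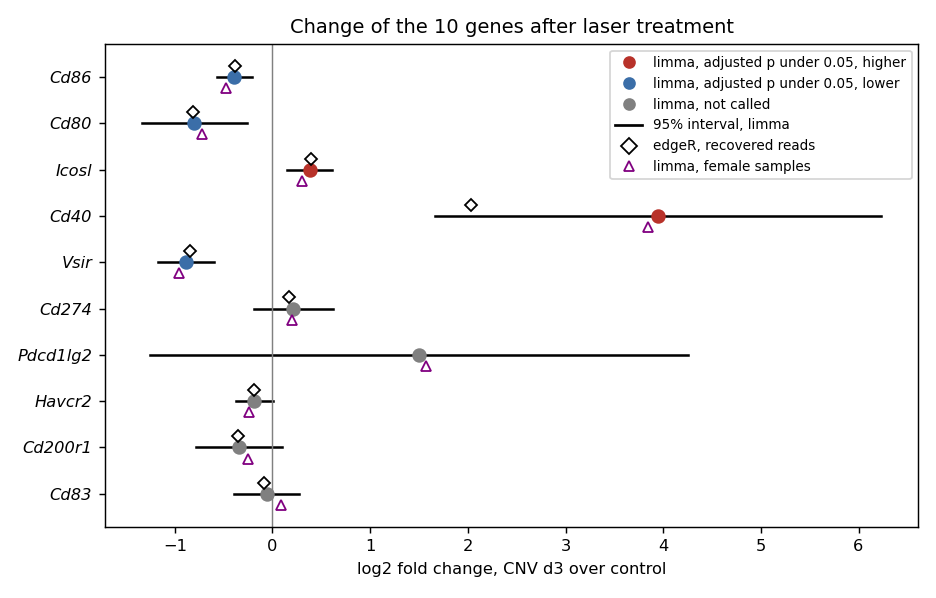
Log2 fold change of CNV d3 over control for the 10 genes (horizontal axis). Circles are the limma value on log2(normalized counts + 1) with its 95% interval as a line, diamonds the edgeR value on recovered reads and triangles the limma value in female samples. *Vsir* at -0.89 and *Cd86* at -0.39 have short intervals below 0, whereas *Cd40* falls from 3.95 to 2.04 with edgeR, which kept no value for *Pdcd1lg2*.

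Apart from the 1 added to each value, ratios within a sample do not depend on its size factor, so 3 pairs of genes were compared as log2 ratios. The test was a two-sided exact permutation test over all 924 labellings, with adjustment over the 3 ratios. *Cd80* stood at 4.44% ± 1.47 of *Cd86* in control and at 3.25% ± 0.718 in CNV d3 (SD, n = 6). The log2 ratio differed by -0.41 (exact permutation test, p = 0.160, adjusted p = 0.2403), so a change in the balance of the CD28 ligands was not shown. It passed in 1 of the 12 tests without 1 sample, at -0.60 without control 5. *Cd86* over *Cd274*, the costimulatory ligand highest per kilobase among the 10 genes over PD-L1, had a mean log2 ratio of 4.33 ± 0.50 in control and 3.73 ± 0.29 in CNV d3. This difference of -0.60 had an exact permutation p of 0.0303 and an adjusted p of 0.0909, and did not pass the correction. It passed only without control 1, at -0.72. For *Pdcd1lg2* over *Cd274* the log2 ratio differed by 1.29 (exact permutation test, p = 0.338, adjusted p = 0.338). With 0 reads of *Pdcd1lg2* in 5 samples its size depends on the pseudocount and, there, on the size factors. The smallest p that 6 samples against 6 allow is 0.00216.

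**Figure D3:**
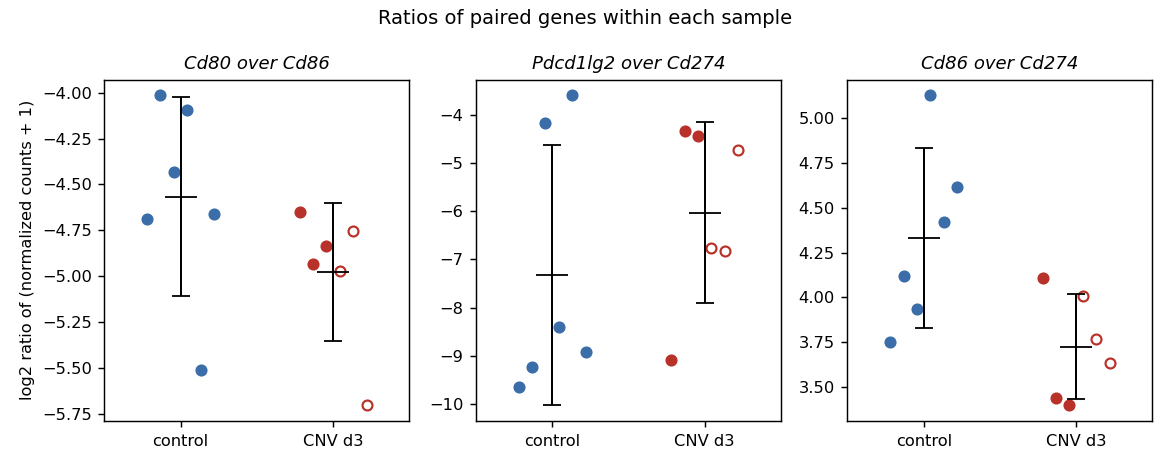
Log2 ratios of 3 pairs of genes within each sample (vertical axes, log2 of the ratio of normalized counts + 1). Circles are samples, open where *Ddx3y* was read, and black lines are the mean ± SD (n = 6). The groups overlap in all 3 panels, and *Cd86* over *Cd274* is lower on average in CNV d3 by 0.60.

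Within CNV d3, samples 1 and 4 were apart from the other 4 in several of these genes, an order that was seen after the values and is given without a test. MHC class II was lowest there, with 492 and 686 normalized counts of *H2-Aa* against 3661 to 10826 in samples 2, 3, 5 and 6. The same samples held the 2 highest CNV d3 values of *Vsir* (40449 and 38971), *Cd86* (9407 and 9380) and *Icosl* (3943 and 3845). They also held the 2 lowest values of *Cd274* (544 and 582) and of *Pdcd1lg2* (0 and 4.33), although sample 5 was close for *Pdcd1lg2*, at 4.81. In *Cd80*, *Cd40*, *Havcr2*, *Cd200r1* and *Cd83*, samples 1 and 4 did not stand together at either end of the CNV d3 values. The samples most changed in *Vsir* were thus those with the most MHC class II RNA, whereas for *Icosl* the samples most changed were those with the least. Of the markers, the microglial *P2ry12* was highest in samples 1 and 4 (80125 and 81084 normalized counts against 44022 to 62057), and the monocyte marker *Ccr2* was lowest there (120 and 163 against 278 to 1351). The dendritic cell marker *Cd209a* was lowest there too (0.739 and 4.33 against 167 to 510), whereas *Ccr7*, of the same list, was at 533 in sample 1 and at 375 in sample 5. Sample 4 had reads of *Ddx3y* and sample 1 had none.

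**Figure D4:**
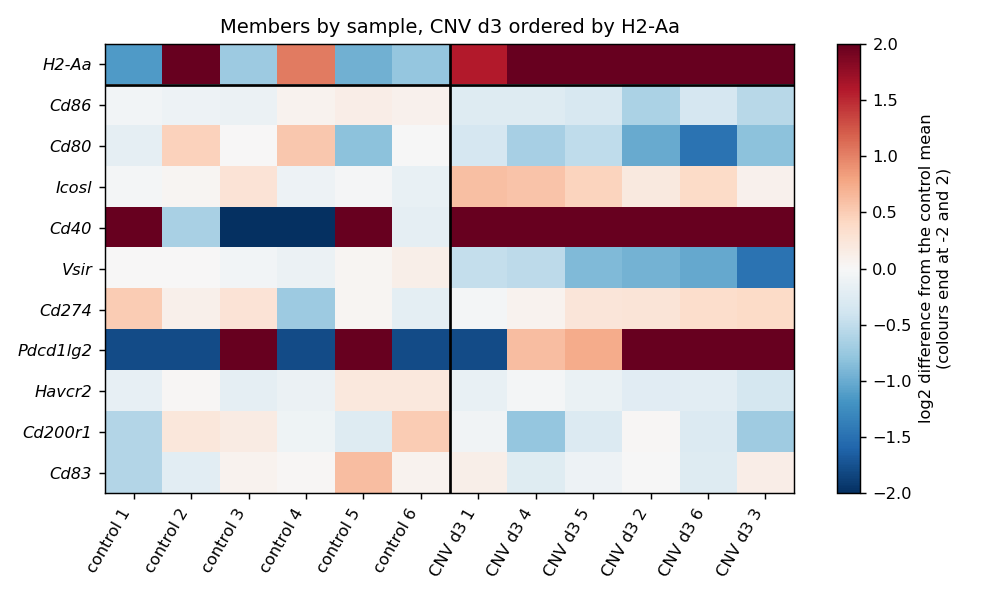
Difference of each sample from the control mean on the log2(normalized counts + 1) scale, for *H2-Aa* (top row) and the 10 genes. Columns are the 6 control samples and then the CNV d3 samples from lowest to highest *H2-Aa*, and colours end at -2 and 2. From left to right in CNV d3, *Vsir* moves from 40449 to 20132 normalized counts, while the rows of *Cd40* and *Pdcd1lg2*, which have few reads, change colour between controls.

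Of 62 other genes of the pathway, 16 were higher and 7 lower in CNV d3, with a median log2 fold change of 0.49. Of all genes 8.29% were higher and 4.57% lower. Among genes with at least 10 normalized counts in 6 samples these shares were 16.9% and 12.1%. With edgeR, which leaves out genes with few reads, 9 of the 62 were higher and 7 lower. In female samples 6 of the 23 genes called by limma kept their call, *Lgals9*, *Cd244a*, *Tnfrsf4*, *Tnfrsf18*, *Cd27* and *Cd200*. Among 16 further costimulatory and checkpoint ligands 4 were higher, 1 was lower and 11 did not pass. *Lgals9*, whose product galectin-9 binds TIM-3, rose from 12533 ± 1537 to 18639 ± 2044 normalized counts (log2 fold change 0.57, SE 0.09, adjusted p = 0.000934 by limma) with no overlap of the groups, as was true of 4.64% of all genes in this direction, and held in female samples (0.61, adjusted p = 0.0158 by limma). *Nectin2*, a ligand of the receptors CD226 and TIGIT, rose from 1181 ± 215 to 1832 ± 157 (0.65, adjusted p = 0.0041 by limma), although its exons overlap another gene and its adjusted p was 0.0951 in female samples. *Cd48* fell from 10168 ± 1610 to 7018 ± 883 (-0.53, adjusted p = 0.00492 by limma), with an adjusted p of 0.137 in female samples. Every CNV d3 sample was below every control for *Cd48*, as was true of 2.83% of all genes. *Btnl2* and *Nectin3* were called higher on few reads, with means of at most 52.9 normalized counts in either group, and *Btnl2* was not called by edgeR (1.88, adjusted p = 0.340). The highest value of *Btnl2*, 85.3, was that of control 4, with CNV d3 samples from 29.4 to 76.1. *Nectin3* had no read in control and ranged from 0 to 93.7 in CNV d3.

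The receptors that T cells use for these ligands were also read in the sorted cells, in which the T cell genes *Cd3d* and *Cd3g* had a mean of at most 0.87 normalized counts. Of 16 such receptors 5 were higher and 1 was lower. *Cd244a*, the receptor of CD48 on NK and some myeloid cells, rose from 186 ± 85.8 to 1833 ± 566 normalized counts (log2 fold change 3.37, SE 0.29, adjusted p = 8.95e-06 by limma). Its CNV d3 samples, from 1156 to 2704, were all above the controls, from 95.4 to 303, as was true of 4.64% of all genes. The change was 3.36 in female samples (adjusted p = 0.0046 by limma). *Pdcd1*, the gene of PD-1, the receptor of PD-L1 and PD-L2, rose from 1959 ± 508 to 2878 ± 534 (0.57, adjusted p = 0.0306 by limma). Controls 1 and 5, at 2830 and 2269, lay above the lowest CNV d3 sample at 2229, and in female samples the adjusted p was 0.120. *Btla* (2.91) and *Tnfrsf4* (3.32), an inhibitory and a costimulatory receptor, were also called higher on few reads, *Btla* not by edgeR (2.02, adjusted p = 0.0762) nor in female samples (adjusted p = 0.258), and *Cd27*, the receptor of CD70, fell from 54.6 ± 26.1 to 12.1 ± 6.91 (-2.17, adjusted p = 0.0255 by limma).

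Downstream of CD40, 11 of 12 signalling genes did not pass the test by limma and 0 were higher, with 1 higher at an unadjusted p under 0.05 and 0 called higher by edgeR or DESeq2. *Birc3*, an inhibitor of apoptosis in the TRAF complex of CD40, fell from 1666 ± 179 to 1215 ± 137 normalized counts (-0.46, adjusted p = 0.015 by limma). It had no overlap of the groups, as was true of 2.83% of all genes in this direction, and an adjusted p of 0.121 in female samples. *Tnfaip3*, an inhibitor of NF-kappaB, had the highest mean of the list, at 1914 ± 471 in control and 1498 ± 295 in CNV d3 (-0.34, adjusted p = 0.246 by limma).

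Of 9 partners of CD200R and TIM-3, 2 were higher and 1 lower. *Cd200*, the ligand of CD200R, had 1 read in the 6 controls together and rose to 41.7 ± 36.0 normalized counts in CNV d3 (log2 fold change 4.27, adjusted p = 0.0101 by limma), with 0 in sample 4. *Dok2*, an adaptor that CD200R recruits, rose from 18.04 ± 21.1 to 93.6 ± 43.3 (3.55, adjusted p = 0.0344 by limma), while the related adaptor *Dok1* fell from 1075 ± 116 to 774 ± 148 (-0.49, adjusted p = 0.0408 by limma). *Dok2* was not called by edgeR (2.36, adjusted p = 0.0906), and neither adaptor was called in female samples (adjusted p = 0.199 for *Dok2* and 0.115 for *Dok1*). *Inpp5d*, a phosphatase and the highest of the list, was at 20112 ± 867 and 18946 ± 1410 (adjusted p = 0.435 by limma).

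Of 9 genes of MHC class II and its turnover, 5 were higher and 3 lower, and none of these 8 calls held in female samples. The chains *H2-Aa* (log2 fold change 4.13), *H2-Eb1* (4.47) and *H2-Ab1* (1.75) and the invariant chain *Cd74* (2.37) were higher. For *H2-Aa* control 2, at 963 normalized counts, lay above CNV d3 samples 1 and 4, and in female samples the adjusted p of the 4 genes was 0.0955, 0.106, 0.121 and 0.0701 by limma. Their log2 fold changes in female samples, a fit with fewer samples, were 4.13, 4.47, 1.85 and 2.39, close to those over all samples. The peptide loading genes *H2-DMa* (-0.39, adjusted p = 0.00958) and *H2-DMb1* (-0.37, adjusted p = 0.0104 by limma) were lower. For both, every CNV d3 sample was below every control, as was true of 2.83% of all genes. *Marchf1*, the ubiquitin ligase that sends MHC class II and CD86 to degradation and that CD83 opposes, fell from 5231 ± 1366 to 3238 ± 349 normalized counts (-0.65, adjusted p = 0.0132 by limma), with an adjusted p of 0.177 in female samples.

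**Figure D5:**
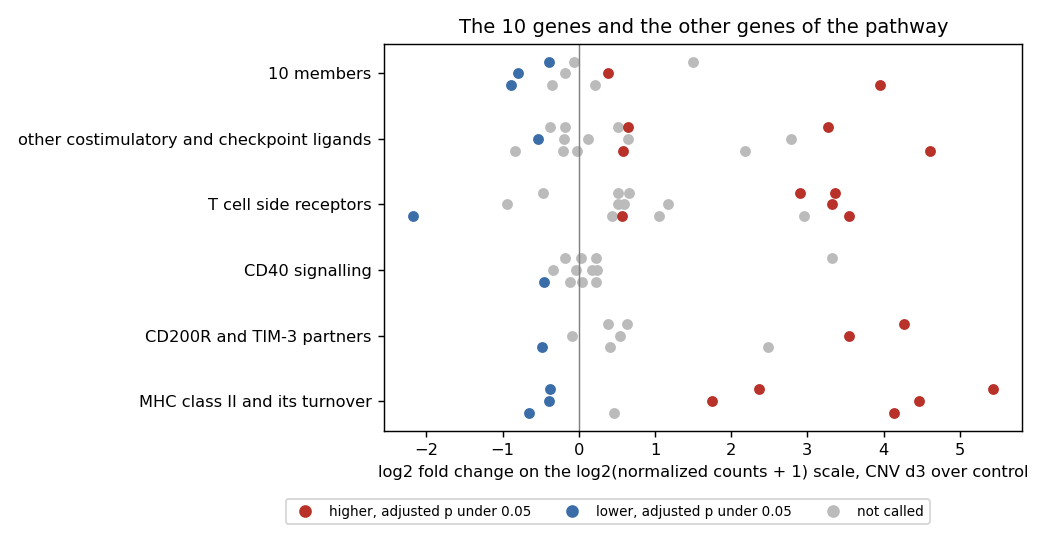
Log2 fold change of CNV d3 over control (horizontal axis) for the 10 genes and the genes of 5 further lists, 1 point a gene, red where higher, blue where lower and grey where not called by limma. The points of CD40 signalling lie around 0 except for 1 gene that was not called, and those of MHC class II fall to both sides, from -0.65 to 5.44.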

How the data were processed

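The authors mapped the reads with STAR 2.7.2b to the mouse genome with the Gencode annotation, combined the BAM files of a sample and ran featureCounts 1.6.4 with its defaults, dropping genes that no sample had reads for. These defaults ignore strand and leave out reads shared by overlapping genes. The methods give 2 BAM files for each sample, and the labels list 2 parts for the 6 controls and CNV d3 sample 4 only, each counted as 1 sample. The deposited signal is the read count divided by the size factor that DESeq2 1.22.2 gave the sample. The authors' columns of group means, fold changes and adjusted p-values were not used.

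Divided by the value of 1 read, 100% of the values in each sample came within 0.001 of a whole number, so reads were recovered. Groups were compared with limma 3.58.1 in R 4.3.3 on log2(normalized counts + 1) over 27299 genes, with a variance trend and Benjamini-Hochberg adjustment. The quasi-likelihood test of edgeR 4.0.16 and DESeq2 1.42.0 on the recovered reads were alternatives, as were pseudocounts of 0.5 and 10, other scalings, a filter of 10 normalized counts in 6 samples, thinning, the replicate block, a *Ddx3y* covariate and leaving out each sample. The comparison of female samples was chosen after seeing the data. On data simulated over 12852 genes, limma called 28 of 50 genes changed by 1 on the log2 scale and 8 of 50 changed by 0.5. Only well-expressed genes were changed there, and far fewer than the 3511 of 27299 called here. These shares therefore do not give the power of the comparison of CNV d3 with control. Libraries were amplified by PCR without molecular identifiers, so read numbers bound the counting error only.

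The members and lists were chosen with earlier results of these data known. From each further list, at most 4 called genes in each direction, by mean, and the gene of the highest mean are named. Marker lists are given by counts and sums, with 1 gene not reported here, and *Cd209a*, *Ccr2*, *Ccr7*, *P2ry12*, *Ddx3y*, *Tnfrsf18*, *Cd3d* and *Cd3g* were picked with their values in view. Listed genes without a row were left out. Genes were matched to Gencode M21 on GRCm38 by identifier (27238 of 27299).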

Additional observations from a re-analysis of the deposited data

How the results depend on the processing

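Over 108 comparisons of the 10 genes under alternatives other than leaving out 1 sample, 92 kept their direction and side of the threshold, 14 lost the call and 2 changed sign. The 92 include genes that were not called in the main fit and so had no call to lose. All lost calls were those of *Cd80* (in 7 of 11 alternatives), *Cd40* (4 of 11) and *Icosl* (3 of 11). *Vsir* and *Cd86* kept their calls in all 11 alternatives each. *Cd80* lost its call with a pseudocount of 10, TMM or total scaling, thinning, the block, the *Ddx3y* covariate and female samples (adjusted p from 0.0537 to 0.251 by limma). *Cd83* reversed to 0.0835 with the covariate, to 0.0843 in female samples and to 0.0638 without control 5, the highest of a range from -0.18 without 1 sample. Higher members numbered 1 with edgeR, with DESeq2 and with the replicate block, and 0 with the covariate or in female samples. DEG among them numbered 0 with edgeR, DESeq2, the covariate and female samples. Of all genes, 1351 were higher and 739 lower with the covariate, 1022 and 540 in female samples, and 2170 lower with DESeq2, against 2264 and 1247. Of the other pathway genes 9 were higher with edgeR, 5 higher and 1 lower in female samples, and 4 lower with the block. The cause was not tested, and fits of female samples use 9 samples.

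Without 1 sample, higher members ranged from 0 to 2, lower from 2 to 3, DEG from 0 to 1, genes higher from 1737 to 2319 and lower from 1022 to 1455. The log2 ratio of *Cd80* over *Cd86* ranged from -0.60 to -0.26, that of *Cd86* over *Cd274* from -0.72 to -0.44 and that of *Pdcd1lg2* over *Cd274* from 0.83 to 2.04. Same-numbered samples of the groups did not deviate together (r from -0.02 to 0.05 over 12753 genes), and the numbers share no stated origin, so the block was not used. With the replicate block, *Icosl* had an adjusted p of 0.0945 and *Cd80* of 0.0942. The ratios kept their side of the threshold with a pseudocount of 10. They did so with the block too, but the pairs of same-numbered samples are too few for a single ratio to pass after adjustment. The block therefore does not decide on the ratios. No value of the 20 groups of samples stood out from its group. *Cd40* and *Pdcd1lg2* rest on few reads, and *Cd40* kept its call in libraries thinned to equal depth.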
